A study of Mus musculus with 2 samples.

Results

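The blood and microglia microRNAs measured here are 8 of the 1973 miRNA genes counted in hindbrain of mouse embryos. They were picked by gene symbol, with earlier results of these data known. The erythroid members are Mir451a, Mir144 and Mir486, and the leukocyte members are Mir223, Mir155, Mir146 (the gene of miR-146a), Mir150 and the row named Mir142b. For that row the reads on the opposite strand, where Mir142 lies, were used. The series holds 1 group of 2 libraries of small RNA (size range below 30 per the labels), made from whole hindbrain of healthy B6NCrl embryos of both sexes at embryonic day 12.5. Replicate 1 came from a pool of 120 embryos and replicate 2 from a pool of 88, and no treatment or mutant is in the series. Both pools carry the same donor label. Levels are counts per 1000000 own-strand counts of all miRNA genes (CPM), given as mean ± SD (n = 2).

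MicroRNAs are cut from hairpin precursors and guide Argonaute proteins to messenger RNAs that pair with the seed, bases 2 to 8 of the mature strand. In the embryo, circulating red cells bring the erythroid miRNAs into every vascular bed, while macrophages that seed the brain early become microglia and carry miRNAs shared with other white blood cells. Mir451a and Mir144 lie together in a locus that the erythroid factor GATA1 switches on. Precursor miR-451a is unusual in that it is cut by Argonaute 2 without Dicer. Mir223 belongs to the myeloid lineage, Mir142 to nearly all white blood cells, Mir155 and Mir146 to activated and inflammatory leukocytes, and Mir150 mainly to mature lymphocytes.

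The mature sequences below, from RefSeq on GRCm38.p6, show how the members differ in the part that selects targets. Each is the arm known as the main product of its hairpin, written 5′ to 3′ with the seed in capitals. The tables sum both arms, so the arms themselves were not measured apart. Names matched RefSeq for 6 of the 8 main arms, and those of Mir486 and Mir150 are not shown.
miR-451a: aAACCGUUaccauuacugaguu
miR-144-3p: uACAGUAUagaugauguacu
miR-223-3p: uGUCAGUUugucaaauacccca
miR-155-5p: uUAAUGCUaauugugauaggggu
miR-146a-5p: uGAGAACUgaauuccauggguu
miR-142a-3p: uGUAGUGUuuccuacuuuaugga
No 2 of these seeds are the same. Among the 1738 mature entries of the RefSeq table, 5 of the 6 seeds occur in no other entry. The exception is miR-146a-5p, whose seed is shared with miR-146b-5p. The 6 arms are 20 to 23 bases long, and 30.0% to 40.9% of their bases are G or C.

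The erythroid pair is encoded within a short stretch of chromosome 11. In GRCm38, Mir144 (ENSMUSG00000065401.1) lies at chr11:78073005-78073070 and Mir451a (ENSMUSG00000070065.1) at chr11:78073170-78073241, both on the plus strand and 99 bases apart. The hairpins are printed with the main mature product in capitals, because its place differs between them.
Mir144: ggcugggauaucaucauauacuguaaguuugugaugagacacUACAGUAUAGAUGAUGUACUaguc
Mir451a: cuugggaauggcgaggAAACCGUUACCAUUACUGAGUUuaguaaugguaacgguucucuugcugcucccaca
The product of Mir451a covers positions 17 to 38 of a hairpin of 72 bases and so runs across its centre, after position 36. That of Mir144 covers positions 43 to 62 of 66 and lies wholly in the 3′ side. The other main arms in the list with a RefSeq hairpin also lie on one side of it. Mir486 (ENSMUSG00000070084.3) lies at chr8:23142555-23142682 in an intron of Ank1, the gene of ankyrin in the red cell membrane.

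The leukocyte members are scattered over the genome. Mir223 (ENSMUSG00000076066.1) lies at chrX:96242817-96242926, in an exon of the noncoding transcript F630028O10Rik. Mir155 (ENSMUSG00000065397.1) lies at chr16:84714140-84714204 in an exon of its noncoding host Mir155hg. Mir146 (ENSMUSG00000065601.1) is at chr11:43374397-43374461 on the minus strand and Mir150 (ENSMUSG00000065495.1) at chr7:45121757-45121821, and the annotation places no host gene around either hairpin. Mir142 is at chr11:87756864-87756927 on the plus strand in an intron of Mir142hg, inside the interval of Mir142b (ENSMUSG00000065420.2), chr11:87756841-87756955 on the minus strand.

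With the columns read by their layout, the reads at the Mir142 locus came wholly from the strand of Mir142. The row had 0 counts on the Mir142b strand in both libraries, and a count of 0 is bounded by 3 counts, which is 1.09 CPM at the depth of replicate 1 and 0.760 CPM at that of replicate 2. The opposite strand held 1007 counts in replicate 1 and 1356 in replicate 2. The mature products of the locus lie across from each other, miR-142a-3p at chr11:87756903-87756925 on the plus strand and miR-142b at chr11:87756906-87756925 on the minus strand, so the strand is what separates them.
miR-142a-3p: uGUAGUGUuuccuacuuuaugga
miR-142b: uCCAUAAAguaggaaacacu
At the other 7 members the opposite strand had 0 to 3 counts in a library. That includes the strand of Mir451b, which covers the same positions as Mir451a and had 1 count in replicate 1 and 0 in replicate 2. These are observed counts, and the bound of 3 holds only where the count was 0. At Mir486, reads that fit both strands were given no gene, so its 2 and 3 counts cannot show that strand to be silent.

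All 8 members reached 10 counts or more in each library and are called detected, as were 372 of the 1973 genes. Replicate 1 held 2764276 own-strand counts and replicate 2 held 3946444. Set against these totals, which do not hold the opposite-strand reads at Mir142, the members' counts came to 0.124% in replicate 1 and 0.116% in replicate 2. Their mean levels spanned 15.1 to 354 CPM, around a median of 123 CPM, against a median of 185 CPM over all detected genes. They therefore lay in the middle and lower part of the profile, at ranks 154 to 306 by mean CPM. The hindbrain miRNAs Mir10a (26113 ± 330 CPM) and Mir10b (15264 ± 1037 CPM), encoded in Hox clusters, and the neuronal Mir137 (3303 ± 56.2 CPM) and Mir153 (1465 ± 211 CPM) stood above every member. The neural Mir9-3 had 382 ± 21.9 CPM, near Mir142, and the neuronal Mir124a-2 had 9.93 ± 0.789 CPM, below every member. Both of these share sequence with other copies, whose common reads the tables leave out.

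**Figure D1:**
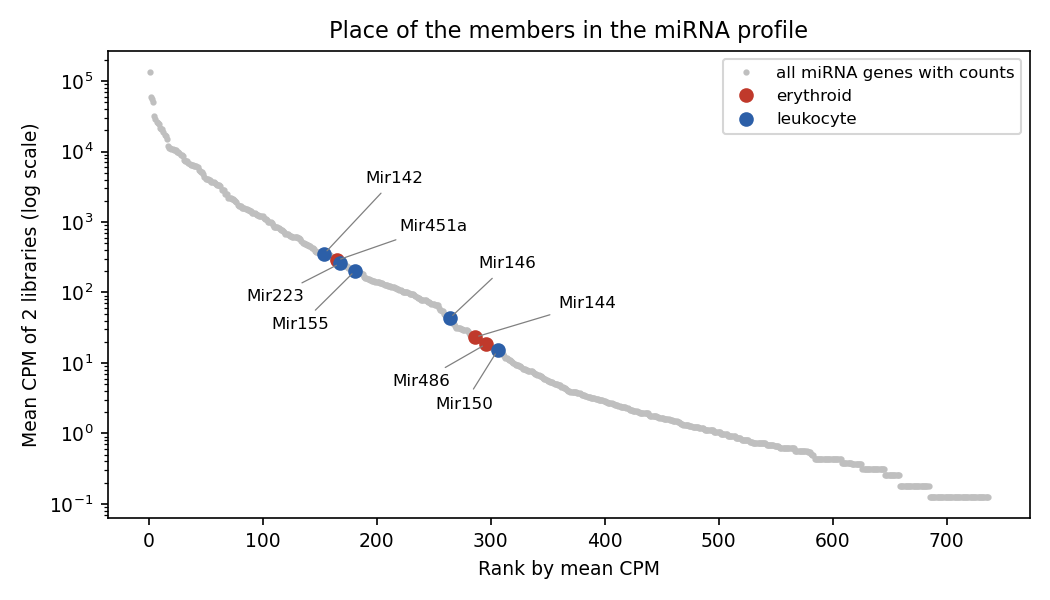
Mean CPM of the 2 libraries (log axis) for every miRNA gene with counts, against its rank, with the erythroid members in red and the leukocyte members in blue. Mir142, Mir451a, Mir223 and Mir155 lie together at ranks 154 to 181, and Mir146, Mir144, Mir486 and Mir150 at ranks 264 to 306.

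Among the erythroid members, of which Mir486 may have lost reads with several matching positions, Mir451a had the most assigned counts. It had 254 CPM in replicate 1 (702 counts, exact Clopper-Pearson 95% interval 236 to 273 CPM) and 316 CPM in replicate 2 (1249 counts, 299 to 335 CPM). Its mean was 285 ± 44.2 CPM, which put it above 207 of the 372 detected genes. Replicate 2 was the higher library, and the counting intervals did not overlap. These intervals cover counting error only, since PCR copies were not told apart from new molecules.

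Mir144 was far lower than its neighbour. It had 23.2 CPM in replicate 1 (64 counts) and 23.1 CPM in replicate 2 (91 counts), so the libraries were nearly level. In replicate 1 the ratio of Mir451a to Mir144 was 11.0 (exact 95% interval 8.48 to 14.4), and in replicate 2 it was 13.7 (11.1 to 17.2). The difference in level between these neighbouring hairpins was thus seen in both libraries, at a mean log2 ratio of 3.62 ± 0.23. Each count is a sequenced read, PCR copies included, and the mature products are of nearly equal length. Ligation and amplification act differently on each miRNA, so the size of a ratio between miRNAs carries that uncertainty.

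Mir486 was the lowest erythroid member. It had 21.3 CPM in replicate 1 (59 counts) and 15.7 CPM in replicate 2 (62 counts), a mean of 18.5 ± 3.98 CPM. Its hairpin is close to a palindrome and shares an unbroken run of 22 bases with its own reverse complement. The annotation places another hairpin there, Mir3107, on the opposite strand, with which Mir486 shares a run of 22 bases as well. A read no longer than that run fits both strands, and these tables give no gene to a read with several matching positions. Such reads made up 32.7% of all reads in replicate 1 and 33.4% in replicate 2. Any such reads of Mir486 are missing from its value, so its place below Mir144 and Mir451a is uncertain.

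**Figure D2:**
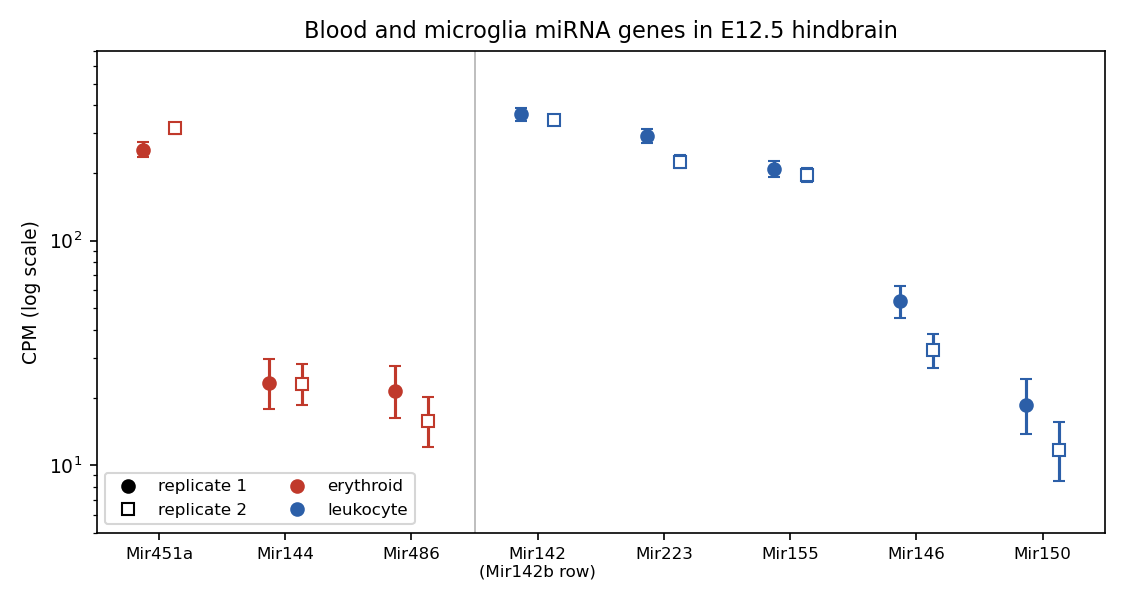
CPM (log axis) of each member in replicate 1 (filled circles) and replicate 2 (open squares), with exact 95% counting intervals as bars. Erythroid members are red and leukocyte members blue. Mir451a is higher in replicate 2 by more than its counting intervals, at 254 CPM in replicate 1 and 316 CPM in replicate 2.

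Mir142 was the most abundant member. It had 364 CPM in replicate 1 (1007 counts, interval 342 to 388 CPM) and 344 CPM in replicate 2 (1356 counts, 326 to 362 CPM), a mean of 354 ± 14.6 CPM. The libraries were close and their intervals overlapped. By the own-strand counts alone this locus would read 0.

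Mir223, which restrains the growth and activation of granulocyte precursors, followed among the leukocyte members. It had 293 CPM in replicate 1 (809 counts, interval 273 to 314 CPM) and 225 CPM in replicate 2 (886 counts, 210 to 240 CPM), a mean of 259 ± 48.2 CPM. Here replicate 1 was the higher library, opposite to Mir451a.

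Mir155, induced in activated macrophages and lymphocytes, differed little between the libraries. It had 209 CPM in replicate 1 (577 counts) and 195 CPM in replicate 2 (771 counts), a mean of 202 ± 9.45 CPM. Mir142, Mir223 and Mir155 gave 38.9%, 31.2% and 22.3% of the leukocyte counts in replicate 1, and 42.5%, 27.8% and 24.2% in replicate 2.

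Mir146, a brake on inflammatory signalling downstream of Toll-like receptors, was lower than these. It had 53.5 CPM in replicate 1 (148 counts) and 32.4 CPM in replicate 2 (128 counts), a mean of 43.0 ± 14.9 CPM. The ratio of Mir155 to Mir146 was 3.90 in replicate 1 (3.25 to 4.70), against 6.02 in replicate 2 (4.99 to 7.32). Its paralogue Mir146b on chromosome 19 had 4 counts in replicate 1 and 3 in replicate 2, too few to be called detected. The ratio of Mir146 to Mir146b was 37.0 in replicate 1 (14.2 to 138) and its value in replicate 2 was 42.7 (14.3 to 210). The sequences are shown because they decide whether reads can be told apart.
miR-146a-5p: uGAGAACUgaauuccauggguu
miR-146b-5p: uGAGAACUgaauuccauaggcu
They are identical in the first 17 bases and in 20 of 22 positions, and differ by G18A and U21C (miR-146a-5p base first, positions from the 5′ end). The hairpins share a run of 21 bases, so trimmed reads may fit both genes and would then be left out of both counts.

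Mir150, which acts in lymphocyte maturation, was the lowest of all members. It had 18.5 CPM in replicate 1 (51 counts, interval 13.7 to 24.3 CPM) and 11.7 CPM in replicate 2 (46 counts, 8.53 to 15.5 CPM), a mean of 15.1 ± 4.80 CPM. Mir142 stood 19.7-fold above it in replicate 1 (14.9 to 26.7), and in replicate 2 the gap was 29.5-fold (22.0 to 40.5). The miRNA of mature lymphocytes thus stood at the low end of the list in both libraries, and the pan-leukocyte miRNA at the top.

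By mean CPM the order was Mir142, Mir451a, Mir223, Mir155, Mir146, Mir144, Mir486 and Mir150. Of the 7 pairs of neighbours in this order, 5 had separate ranges. The pairs that overlapped were Mir451a with Mir223, and Mir486 with Mir150. Mir451a and Mir223 changed places between the libraries, with Mir451a at 0.868 of Mir223 in replicate 1 (0.783 to 0.961) and 1.41 of it in replicate 2 (1.29 to 1.54). The members fell into a higher set of 4 and a lower set of 4, and the higher set held 90.6% of the members' counts in replicate 1 and 92.9% in replicate 2.

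The erythroid members together were lower than the leukocyte members in both libraries. The erythroid sum was 298 CPM in replicate 1 (825 counts, interval 278 to 320 CPM) and 355 CPM in replicate 2 (1402 counts, 337 to 374 CPM), a mean of 327 ± 40.2 CPM. The leukocyte sum was 938 CPM in replicate 1 (2592 counts, 902 to 974 CPM) and 808 CPM in replicate 2 (3187 counts, 780 to 836 CPM), a mean of 873 ± 92.0 CPM. The ranges of the sums over the libraries did not overlap. Any reads of Mir486 that fit several positions are missing from the erythroid sum, and any such reads of Mir146 from the leukocyte sum. How many were lost is not known, so the sums and their ratio carry that uncertainty. The erythroid sum was 0.318 of the leukocyte sum in replicate 1 (0.294 to 0.344) and 0.440 of it in replicate 2 (0.413 to 0.469), a mean log2 ratio of -1.42 ± 0.33. No test was made, since flipping the signs of 2 libraries allows no exact two-sided p below 0.5. In bulk tissue, fewer cells of a type and less of its RNA per cell cannot be told apart, so the sums are no count of cells.

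The comparison rested on few genes. Mir451a gave 85.1% of the erythroid counts in replicate 1 and 89.1% in replicate 2. Without it, in replicate 1 the leukocyte sum was 21.1 times that of Mir144 and Mir486, and in replicate 2 it was 20.8 times. Mir486 may have lost reads with several matching positions, so these 2 ratios may be too large. Without Mir142, in replicate 1 the leukocyte sum was 1.92 times the erythroid sum, and in replicate 2 it was 1.31 times. The leukocyte sum was the higher in each case, and the size of the ratio was not the same. Leaving out Mir451a could only widen the gap, since it lowers the smaller sum. Leaving out Mir142 could have turned the direction, and it narrowed the gap.

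**Figure D3:**
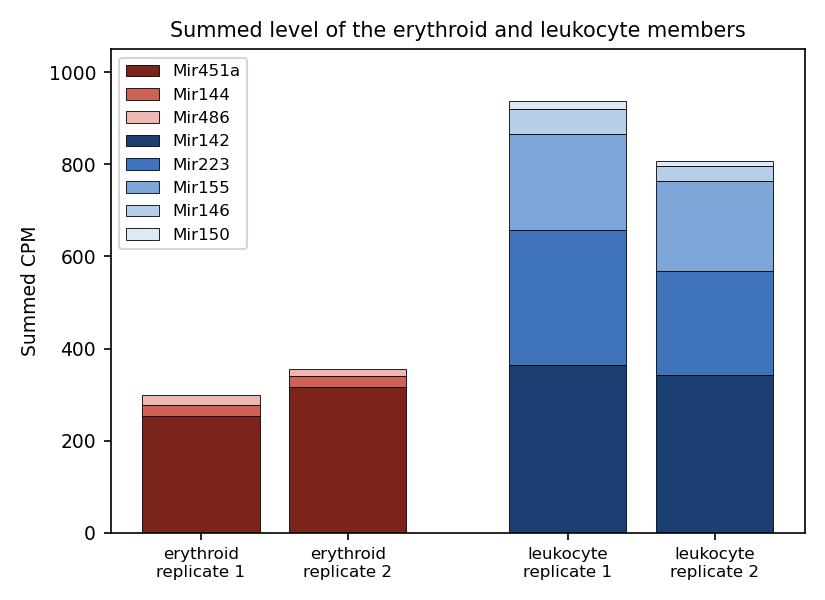
Summed CPM of the 3 erythroid members (reds) and the 5 leukocyte members (blues) in each library, with each segment a member. The erythroid bars reach 298 and 355 CPM and the leukocyte bars 938 and 808 CPM in replicates 1 and 2.

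The measured balance of the lists differed between the libraries by more than its counting intervals. These hold counting error only, and the tested genes as a whole differed by more than that (chi-square over degrees of freedom, 104). Whether the balance differed beyond that spread was not tested. The shares given here leave out any reads of Mir486 or Mir146 that fit several positions. Erythroid counts were 24.1% of the members' counts in replicate 1 (22.7% to 25.6%) and 30.6% in replicate 2 (29.2% to 31.9%). Without Mir451a this share was 4.53% in replicate 1 (3.78% to 5.38%) and 4.58% in replicate 2 (3.90% to 5.35%). Whether Mir144 and Mir486 differed from Mir451a in this was not tested, and the intervals of the ratio of Mir451a to Mir144 overlapped between the libraries. Mir126a of endothelial cells, the lining of the vessels that hold the blood, had 25987 CPM in replicate 1 and 23442 CPM in replicate 2. Its part in the difference was not tested.

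Between the libraries, 0 of 8 members passed both an adjusted p under 0.05 and a 2-fold minimum, against 3.55% of the 394 genes tested. An exact binomial test, two-sided and with Benjamini-Hochberg adjustment over all tested genes, was used, and it sets 1 library against the other with counting error only. With unadjusted p under 0.05 the 2-fold count was 0 members beside 16 of the 394 genes, and without the fold it was 4 members beside 220 of the 394 genes. Without the minimum fold it called 3 of the 8 members, beside 51.5% of all genes tested, so such a call was common in these libraries. The first was Mir451a, which was lower in replicate 1 by 0.32 on the log2 scale (adjusted exact binomial p = 8.24e-06). Mir223 was 1.30-fold higher in replicate 1 (adjusted exact binomial p = 2.02e-07), and so was Mir146 by 1.65-fold (adjusted exact binomial p = 0.000106), the widest fold among the members. Calls in the higher direction were made for 26.4% of all tested genes and in the lower direction for 25.1%.

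The 5 members that did not pass were Mir150, Mir486, Mir155, Mir142 and Mir144. Mir150 was 1.58-fold higher in replicate 1, with an exact interval of 1.04 to 2.41 and an adjusted exact binomial p of 0.0566. Mir486 had a ratio of 1.36 (0.935 to 1.97). Mir155 had a ratio of 1.07 (0.957 to 1.19) and Mir142 of 1.06 (0.976 to 1.15). Mir144 had a ratio of 1.01 (0.718 to 1.40), and its sign turned with the scaling of the libraries. All 5 leukocyte members had a ratio above 1, also with TMM and DESeq2 size factors, as did 209 of the 394 tested genes by the assigned totals. The median absolute log2 ratio was 0.35 over the members and 0.24 over all tested genes. A further test, from edgeR, took its dispersion from the same 2 libraries that it compared. A difference between them thus counted as spread, and few genes could pass. By the exact test of edgeR with their common dispersion, which takes in the spread between them (a coefficient of variation of 17.3%), 0 members passed and 2 genes in all, or 0.508% of those tested. With an unadjusted p under 0.05 the edgeR counts were 0 of 8 members and 17 of all 394 genes.

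**Figure D4:**
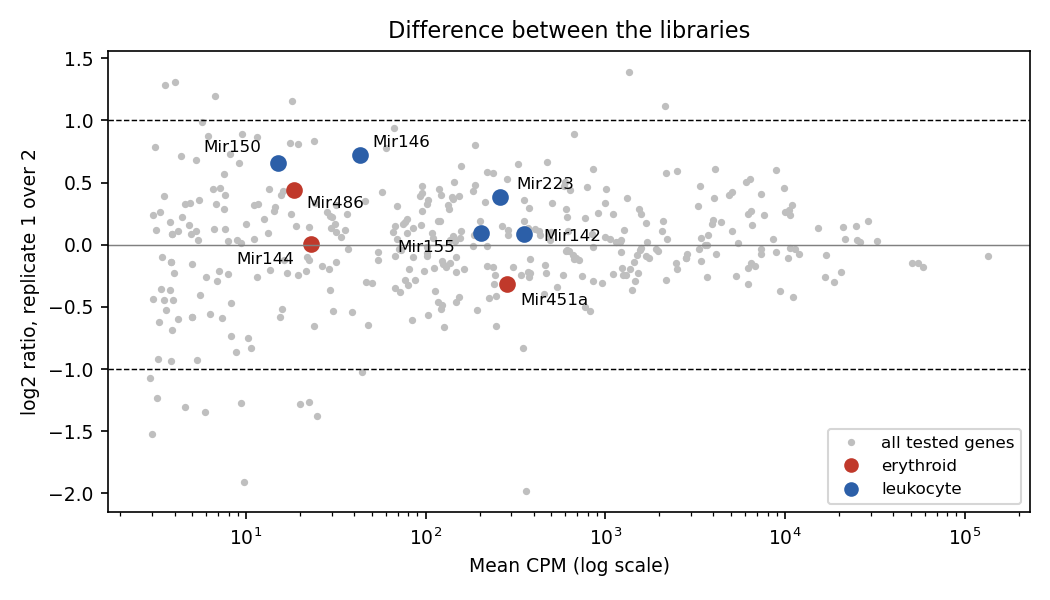
The log2 ratio of replicate 1 over replicate 2 against mean CPM (log axis) for the 394 tested genes (grey), with the erythroid members in red and the leukocyte members in blue. All members lie within the dashed lines at 2-fold, Mir451a at -0.32 and Mir146 at 0.72.

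Other miRNAs known from blood cells covered a wider range of levels, though bulk tissue does not show which cells their reads came from. Of the 14 genes in this list, 13 were detected, and Mir146b was not. The highest were Mir126a of endothelium and early blood progenitors (24715 ± 1800 CPM), Mir342 of the Evl gene (9955 ± 1299 CPM), Mir21a (6226 ± 572 CPM) and Mir23a (6051 ± 1493 CPM), which shares sequence with another hairpin. The median of the detected genes in this list was 2514 CPM, against 123 CPM for the members. The former is the value of Mir16-1, which shares sequence with another hairpin, as do Mir27a, Mir24-2 and Mir181a-1. Among the members, Mir486 and Mir146 do so too. Any reads in common are left out of these values, so both medians carry that uncertainty. The lowest of the 13 detected genes were Mir511 and Mir147, known from macrophages and named after their values were seen. The leukocyte members Mir142, Mir223 and Mir155 had 354, 259 and 202 CPM, so these low values are no measure of macrophages. Mir511 had 3.62 CPM in replicate 1 (10 counts) and 7.10 CPM in replicate 2 (28 counts). Mir147 had 11.2 CPM in replicate 1 and 10.9 CPM in replicate 2. None of the 13 tested genes was called at 2-fold, and 8 passed with no minimum fold, 5 higher and 3 lower in replicate 1, beside the same 51.5% of all genes.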

How the data were processed

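MicroRNA sequencing of embryonic hindbrain gave 1 table per library. The authors deposited whole-number read counts per miRNA gene, from reads aligned to mm10 and the M4 annotation of GENCODE, per the notes deposited beside them. For the aligner, trimming and versions, nothing is given in the sources used here. Without header, the 3 columns of counts per table were read by their layout as both strands together, the gene's strand and the opposite strand. Rows that name no gene (unmapped, several positions, outside genes) were left out of totals, and were 15.7%, 32.7% and 5.12% of 5947846 reads in replicate 1 and 16.2%, 33.4% and 4.81% of 8656439 in replicate 2. The counts differed by more than sampling noise (chi-square over degrees of freedom, 104). The tables are therefore not one set of reads deposited again, but this does not separate different pools from repeat preparations of 1 RNA, and binomial p-values cover counting error between these pools only.

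IDs were matched without version to GENCODE M21 on GRCm38 (1894 of 1973 genes). A hairpin shares sequence if an identical run of 20 bases lies in another hairpin on its own strand. CPM used own-strand totals. Genes averaging 10 counts or more were tested, with 0.5 added in ratios. Alternatives used edgeR 4.0.16 and DESeq2 1.42.0 in R 4.3.3. Other steps used Python 3.11.15, pandas 2.3.3, SciPy 1.17.1, numpy 2.4.6 and matplotlib 3.10.9. The binomial test was tested on simulated counts that held counting error only, without the further spread seen between these libraries. Members, lists, tests and the rule for named genes were chosen with earlier results of these data known. The rule covered the members, their overlapping and neighbouring miRNA genes within 10 kb, and genes that share a main arm's seed. It also took the 4 highest of the other blood miRNAs, and Mir511 and Mir147 were named outside it.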

Additional observations from a re-analysis of the deposited data

How the results depend on the processing

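The erythroid sum stayed below the leukocyte sum under every alternative run, but several of these could not turn the direction. Scaling of the libraries cancels in the ratio, and leaving out Mir451a lowers the sum that was already lower. No alternative restored reads with several matching positions. Leaving out Mir142, or counting only the own strand, which has the same effect, gave a log2 ratio of -0.66 and a leukocyte sum of 519 CPM. Leaving out Mir451a gave -4.39 and an erythroid sum of 41.6 CPM. Per 1000000 of all reads, unassigned ones included, the sums were 150 CPM (erythroid) and 402 CPM (leukocyte). Leaving out each replicate gave 298 to 355 CPM, 808 to 938 CPM and log2 ratios of -1.65 to -1.18, and 3.46 to 3.78 for Mir451a over Mir144. With at least 100 counts in both libraries 5 members were detected. With no minimum fold 3 members and 203 genes were called between the libraries, with 14 genes at 2-fold, 4 when they had to average 100 counts, and 2 by the edgeR exact test. Mir144 turned to -0.024 with TMM and -0.035 with DESeq2 size factors, and was called under neither. Of the 32 alternative fits of single members, 27 kept direction and call, those 2 of Mir144 turned, and Mir451a, Mir223 and Mir146 lost theirs by the edgeR test (adjusted p = 1 for each), which adds the spread between libraries. That spread was estimated from the same 2 libraries that were compared. No paired analysis was possible because there is only 1 group. The depth limits Mir150, Mir486 and Mir144, with 46 to 91 counts in a library.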
